A study of Mus musculus with 2 samples.

Results

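The genes described here encode 9 enzymes or enzyme subunits of the tricarboxylic acid (TCA) cycle of mitochondria: Cs, Idh3a, Idh3b, Idh3g, Ogdh, Dlst, Suclg1, Fh1 and Mdh2. They were taken by name from a fixed list of cycle enzymes, not by their values, and all 9 were found among the 23284 gene symbols measured. RNA-seq had been performed on leukemic stem cells (LSCs) from mice with an induced chronic myeloid leukemia (CML), and each genotype, WT and STAP-1 KO, was measured in 1 library. Lineage-negative, Sca-1+ and c-Kit+ (LSK) bone marrow cells of C57BL/6J donors, either WT or with a targeted disruption of Stap1, were infected with a retrovirus that carries BCR-ABL and green fluorescent protein (GFP). They were injected with helper bone marrow into lethally irradiated C57BL/6SJL recipients, and donor-derived GFP+ CD45.2+ LSK cells were sorted at day 11. The mice of the study were 8 to 14 weeks old. Both groups therefore carry BCR-ABL from a virus and differ in the Stap1 genotype of the donor, and the number of animals pooled for a library is not given in the sources used here. With 1 library per genotype, the differences below could not be checked against replicates or tested.

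The TCA cycle takes up acetyl units from pyruvate, fatty acids and amino acids and oxidizes them to carbon dioxide in the mitochondrial matrix. The electrons leave as NADH and as reduced flavin and feed the respiratory chain, which drives ATP synthase. Intermediates also leave the cycle for the synthesis of lipids, heme and amino acids, and refilling reactions such as pyruvate carboxylation replace them. CML LSCs are known for their reliance on oxidative phosphorylation.

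Of the 9 genes, 7 had higher mRNA levels in STAP-1 KO LSCs than in WT LSCs and 2, Cs and Ogdh, had lower levels. Suclg1 and Fh1 were the only members at least 2-fold higher, by 2.04-fold and 2.07-fold, and no member was at least 2-fold lower. The counting intervals of both reach below 2, and neither gene was 2-fold higher once the median of genes of like length and GC content was subtracted, as described below. The median log2 ratio of the members was 0.65, a ratio of 1.57, or 0.34 after that correction, and their summed level was 1381 FPKM in WT LSCs and 2078 FPKM in STAP-1 KO LSCs. FPKM values are fragment numbers divided by transcript length and by library size, so that levels can be compared between genes. Log2 ratios are log2((STAP-1 KO + 0.1)/(WT + 0.1)) of FPKM values. For reference, 12.3% of the 12507 genes with at least 0.1 FPKM in both libraries were at least 2-fold higher in STAP-1 KO LSCs and 22.9% were at least 2-fold lower. Of the 10974 genes whose mean reached 1 FPKM, 48.3% had a log2 ratio above 0 and 51.7% one below 0, and their median was -0.04. In bulk samples, more cells of a type and more RNA per cell cannot be told apart.

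Several properties of the libraries bear on these values. Steps between low FPKM values, of which 45.0% (WT) and 50.4% (STAP-1 KO) lay at whole reads to within 0.01, gave effective depths of 7520000 reads (WT) and 10480000 reads (STAP-1 KO). At these depths, the estimated reads behind a member's value ranged from 1113 to 8634, and the 95% exact intervals below cover counting error only. The targeted gene Stap1 was at 62.0 FPKM in WT LSCs and 0.309 FPKM in STAP-1 KO LSCs. The 12 mast cell and basophil markers summed to 52097 FPKM in WT LSCs and 5339 FPKM in STAP-1 KO LSCs, and all 11 whose mean reached 1 FPKM were at least 2-fold lower in the latter (Cpa3, 17984 and 1774.5 FPKM). The 7 primary granule markers were all at least 2-fold higher and summed to 572 and 4670 FPKM (Mpo, 248 and 1973 FPKM). The sums were 196 and 132 FPKM for megakaryocyte markers (Itga2b, 123 and 32.5 FPKM, with 4 of 6 markers higher), 414 and 186 FPKM for neutrophil markers (6 of 7 lower) and 139 and 47.6 FPKM for monocyte and macrophage markers (Cd68, 95.7 and 26.3 FPKM), although Csf1r, singled out after its value was seen, was at 1.56 and 5.31 FPKM. Of the 5 monocyte and macrophage markers whose mean reached 1 FPKM, 2 were higher and 3 lower, with a median log2 ratio of -0.08. Erythroid markers summed to 2554 and 1281 FPKM (Beta-s, 1460.1 and 674 FPKM) with members in both directions. The near-identical genes Hba-a2 (773 and 15.9 FPKM) and Hba-a1 (34.8 and 379.8 FPKM, singled out after its value was seen), whose reads may be split between them, went opposite ways. Of the genes that define the sorted cells, Kit was at 468 and 30.1 FPKM and Ly6a, which encodes Sca-1, at 285 and 106 FPKM. The 6 LSK markers, with both among them, summed to 1570 and 1252 FPKM. Of the 6, 2 were higher (Cd48, 525 and 907 FPKM) and 4 lower. Of the lymphoid markers, which were low, the 5 of B cells summed to 3.58 and 18.8 FPKM (Cd79b, 3.10 and 17.8 FPKM, with Ebf1 and Pax5 listed at 0 in both) and the 4 of T cells found in the files to 14.6 and 48.5 FPKM (Lck, 11.8 and 41.9 FPKM). The part of these differences in the values of the cycle genes was not tested.

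The cycle starts with citrate synthase, encoded by Cs, which condenses acetyl-CoA with oxaloacetate. Cs (chr10:128337734-128362479, plus strand, in GRCm38, with 11 exons in the coding transcript used) was at 198 FPKM in WT LSCs and 163 FPKM in STAP-1 KO LSCs. The level in STAP-1 KO LSCs was 0.824 of that in WT LSCs (95% counting interval 0.790 to 0.860). Cs was the second most abundant member in WT LSCs and the sixth in STAP-1 KO LSCs, and its share of the members' summed FPKM was 14.4% and 7.86%. Csl, a gene with 1 exon that resembles Cs, was at 30.2 and 24.3 FPKM. It shares 23 stretches of 75 bases, the read length, with Cs, which is 0.806% of the stretches of Cs, so that few reads could be assigned to either gene.

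The 3 subunit genes of the NAD-linked isocitrate dehydrogenase, which makes 2-oxoglutarate and NADH, were all higher in STAP-1 KO LSCs. Idh3a (chr9:54586334-54604661, plus strand, 11 exons), the catalytic subunit, was at 137 FPKM in WT LSCs and 240.3 FPKM in STAP-1 KO LSCs. The ratio was 1.75 (1.67 to 1.83). Idh3b (chr2:130279309-130284547, minus strand, 12 exons), a subunit that pairs with the catalytic one, was at 105 and 165 FPKM, a ratio of 1.57 (1.46 to 1.69). Idh3g (chrX:73778963-73786897, minus strand, 13 exons), the regulatory subunit, was at 173 and 312 FPKM, a ratio of 1.80 (1.70 to 1.92). The intervals of Idh3a and Idh3g overlap, as do those of Idh3a and Idh3b, whereas those of Idh3b and Idh3g do not. As deposited, the balance among the subunits moved less than their levels did. The summed FPKM of Idh3b and Idh3g was 2.03 times that of Idh3a in WT LSCs and 1.99 times in STAP-1 KO LSCs. Taken singly, Idh3b over Idh3a changed to 0.897 of the WT value and Idh3g over Idh3a to 1.03 of it. After the length and GC correction described below, these values were 0.830 and 0.914. Idh3b overlaps an exon of Nop56 on the opposite strand by 5 bases, and the libraries carry no strand.

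The 2-oxoglutarate dehydrogenase complex carries out the next oxidative decarboxylation, and here the component genes parted. Ogdh (chr11:6291633-6356642, plus strand, 23 exons), the decarboxylating E1 component, was at 68.5 FPKM in WT LSCs and 44.2 FPKM in STAP-1 KO LSCs. The ratio of 0.645 (0.605 to 0.688) was the lowest among the members. Dlst (chr12:85110833-85134845, plus strand, 15 exons), the E2 component that carries lipoic acid, was at 74.9 and 84.2 FPKM, a ratio of 1.12 (1.05 to 1.20). The E1 to E2 ratio, Ogdh over Dlst, was thus 0.915 in WT LSCs and 0.526 in STAP-1 KO LSCs, a change to 0.575 of the WT value, or to 0.818 of it after the length and GC correction described below. The E3 component Dld, which this complex shares with pyruvate dehydrogenase, was not among the 9 genes and was at 79.4 and 134 FPKM. In WT LSCs the 3 component genes lay between 68.5 and 79.4 FPKM. In STAP-1 KO LSCs their levels were spread from 44.2 to 134 FPKM. Dld over Ogdh was thus 2.62 times the WT value, or 1.47 times after the length and GC correction.

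Succinyl-CoA ligase makes succinate and ATP or GTP. Suclg1 (chr6:73248382-73276911, plus strand, 9 exons) encodes the alpha subunit that both forms of the enzyme contain. It was at 133 FPKM in WT LSCs and 272 FPKM in STAP-1 KO LSCs, a ratio of 2.04 (1.91 to 2.17). The beta subunits set the nucleotide. Suclg2, for the GTP form, was at 16.4 and 41.7 FPKM, and Sucla2, for the ATP form, was at 67.2 and 105 FPKM. All 3 subunit genes were therefore higher in STAP-1 KO LSCs, and Suclg2 over Sucla2 was 0.244 in WT and 0.396 in STAP-1 KO LSCs. That shift of 1.62-fold was 2.11-fold after the length and GC correction. Of the 75-base stretches of Suclg2, 16.0% also occur in a pseudogene. Across the step from the dehydrogenase to the ligase, Suclg1 over Ogdh was 1.94 in WT LSCs and 6.14 in STAP-1 KO LSCs. This shift of 3.16-fold was 1.70-fold after the length and GC correction, in which Suclg1 had a log2 ratio of 0.57 and Ogdh one of -0.19.

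Succinate dehydrogenase, which is also complex II of the respiratory chain, contributed none of the 9 genes. Its 4 subunit genes Sdha, Sdhb, Sdhc and Sdhd had log2 ratios of 0.34, 0.34, 0.58 and 0.71. All were higher in STAP-1 KO LSCs as deposited, and none reached 2-fold. After the length and GC correction, Sdhb was at -0.13 and the other 3 stayed above 0.

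Fumarase and malate dehydrogenase close the cycle. Fh1 (chr1:175600374-175625635, minus strand, 10 exons), the gene of fumarase, was at 66.0 FPKM in WT LSCs and 137 FPKM in STAP-1 KO LSCs. The ratio of 2.07 (1.94 to 2.22) was the highest among the members, although its interval overlaps that of Suclg1. Fh1 was the least abundant member in WT LSCs and was seventh in STAP-1 KO LSCs, above Dlst and Ogdh. Mdh2 (chr5:135778480-135790398, plus strand, 9 exons) encodes the matrix malate dehydrogenase, which regenerates oxaloacetate for citrate synthase. It was at 424 FPKM in WT LSCs and 660.1 FPKM in STAP-1 KO LSCs, a ratio of 1.56 and a log2 ratio of 0.64 (0.58 to 0.69). Mdh2 was the most abundant member in both libraries, with 30.7% and 31.8% of the members' summed FPKM. Mdh2 over Cs, the enzyme before and the enzyme after oxaloacetate, was 2.14 in WT LSCs and 4.04 in STAP-1 KO LSCs. This shift of 1.89-fold was 1.55-fold after the length and GC correction.

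**Figure D1:**
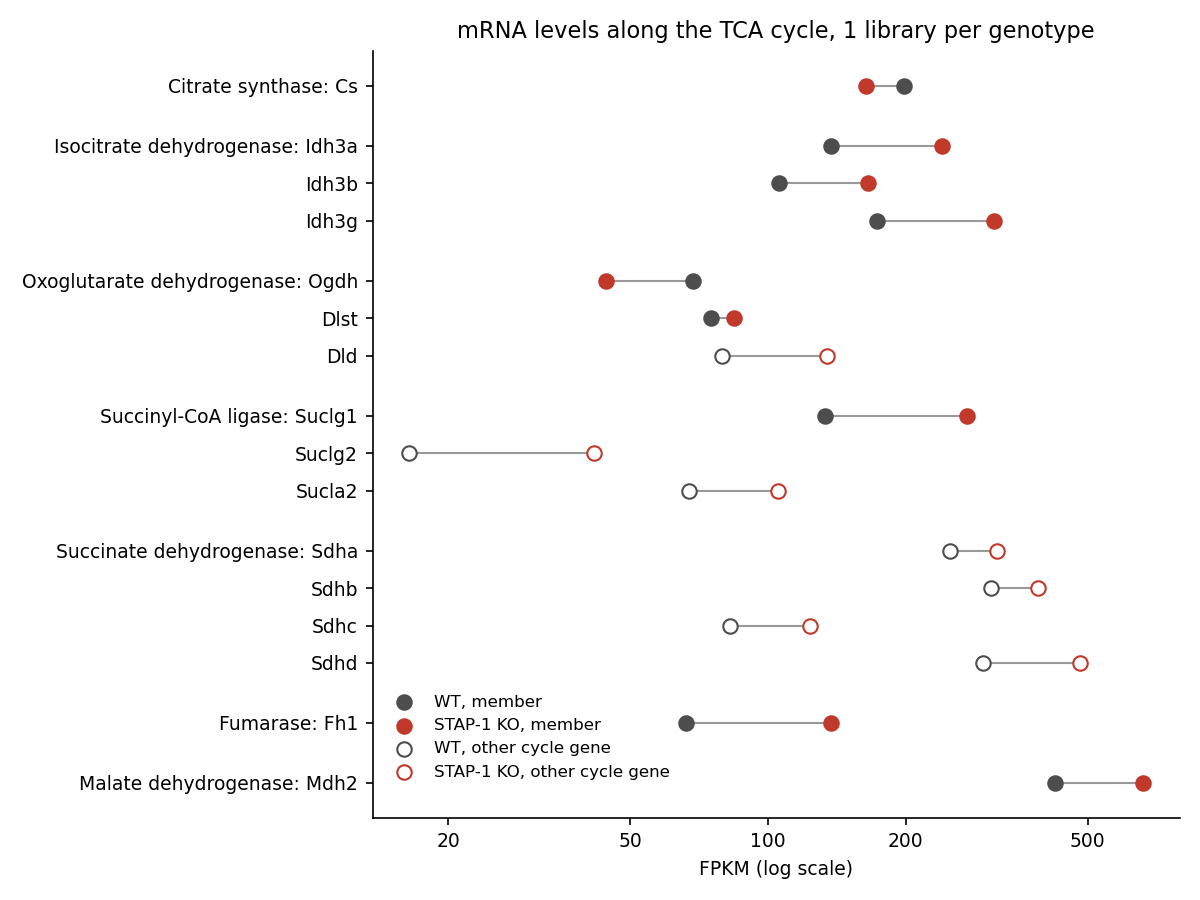
Levels of the cycle genes in FPKM (log axis) in the order of the reactions, with 1 point per library, grey for WT and red for STAP-1 KO. Filled points are the 9 members and open points other genes of the cycle. The STAP-1 KO points of Cs and Ogdh lie to the left of the WT points, and those of the other genes plotted lie to the right.

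In order of their ratios, the 6 highest members were Fh1, Suclg1, Idh3g, Idh3a, Idh3b and Mdh2, and each of these overlapped its neighbour in the order within the counting intervals. Dlst, Cs and Ogdh followed, each apart from its neighbours. By level, the pairs of neighbours with overlapping intervals were Idh3a and Suclg1, Dlst and Ogdh, and Ogdh and Fh1 in WT LSCs, and Idh3b and Cs in STAP-1 KO LSCs. Counting error is only part of the error, as the spread between animals or cultures is not known.

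**Figure D2:**
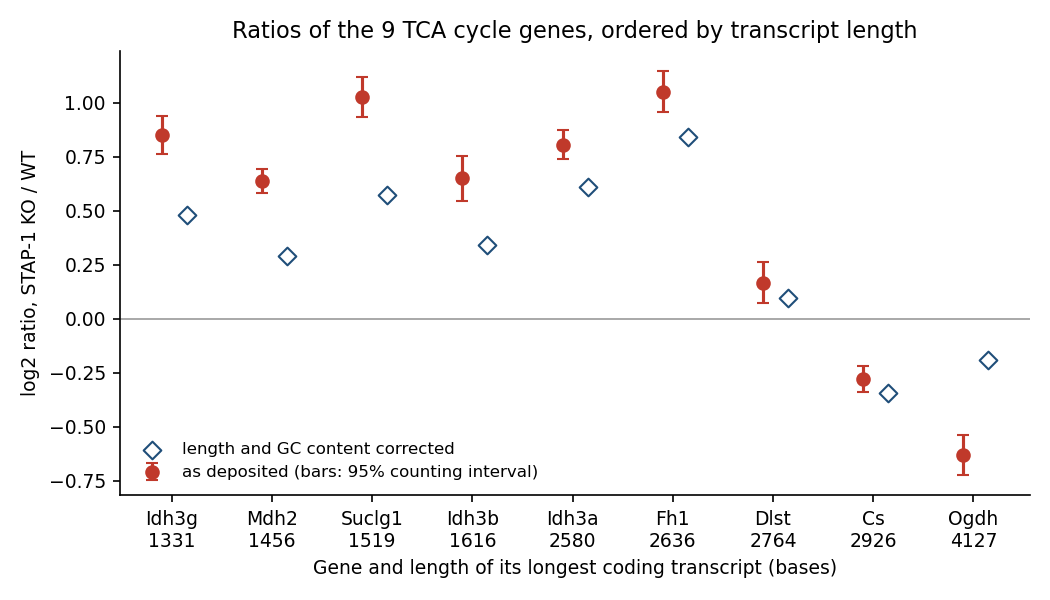
Log2 ratio of STAP-1 KO to WT for each of the 9 members, ordered by coding transcript length from 1331 to 4127 bases, from the deposited values with 95% counting intervals and after correction for transcript length and GC content. Cs and Ogdh lie below 0 in both forms, and the other 7 lie above 0.

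The ratios in these libraries moved with transcript length. Over 10865 genes, the rank correlation of coding transcript length with the log2 ratio was -0.40, given as a description since genes of the same libraries are not independent. Genes up to 885 bases had a median log2 ratio of 0.51 and genes from 7644 bases one of -1.005. Among the members, the 3 longest transcripts, of Ogdh (4127 bases), Cs (2926 bases) and Dlst (2764 bases), had the 3 lowest ratios. Fh1 (2636 bases), the next in length, had the highest ratio. Beside genes of like length, Fh1, Suclg1 and Idh3a lay above the upper quartile of their length bin, and the other 6 members, Cs and Ogdh included, lay between the quartiles. When the median of genes of like length and GC content was subtracted, the members ranged from -0.34 (Cs) to 0.84 (Fh1) with a median of 0.34. The same 7 members remained above 0, and none was then 2-fold higher. Ogdh moved from -0.63 to -0.19 and Cs from -0.28 to -0.34, so that Cs was then the lowest. Whether length itself set the ratios was not tested.

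**Figure D3:**
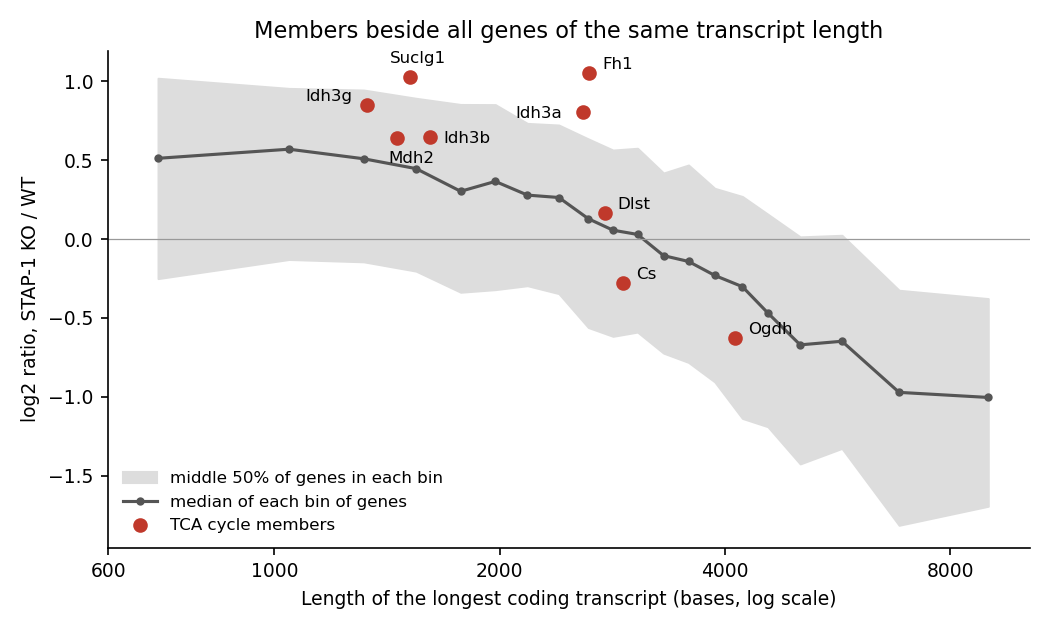
Log2 ratio of STAP-1 KO to WT against coding transcript length in bases (log axis), with the 9 members named. The line is the median and the band the middle 50% of the genes in each of 20 length bins, and Fh1, Suclg1 and Idh3a lie above the band.

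Promoter sequences are shown for the member with the highest ratio and the 2 members with ratios below 1. They are the 250 bases before the annotated start, read 5′ to 3′ on the strand of the gene, from RefSeq (GRCm38.p6). Capitals mark a CCAAT box (CCAAT) or a GC box (GGGCGG) on either strand (ATTGG and CCGCCC are matches to the opposite strand), and no match overlaps another motif searched. The windows are chr1:175625636-175625885 (minus strand) for Fh1, chr10:128337477-128337726 (plus strand) for Cs and chr11:6291347-6291596 (plus strand) for Ogdh, where the outermost of 6 annotated starts was used. None of them overlaps an annotated exon.
Fh1: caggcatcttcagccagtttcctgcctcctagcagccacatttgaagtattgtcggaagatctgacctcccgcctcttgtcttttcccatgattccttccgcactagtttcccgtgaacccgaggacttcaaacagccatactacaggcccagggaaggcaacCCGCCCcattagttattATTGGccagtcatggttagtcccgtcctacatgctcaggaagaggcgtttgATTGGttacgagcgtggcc
Cs: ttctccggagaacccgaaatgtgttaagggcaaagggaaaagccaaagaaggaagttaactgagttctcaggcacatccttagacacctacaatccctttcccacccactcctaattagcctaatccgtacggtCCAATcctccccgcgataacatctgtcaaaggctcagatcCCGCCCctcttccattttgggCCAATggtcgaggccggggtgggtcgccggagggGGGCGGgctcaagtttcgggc
Ogdh: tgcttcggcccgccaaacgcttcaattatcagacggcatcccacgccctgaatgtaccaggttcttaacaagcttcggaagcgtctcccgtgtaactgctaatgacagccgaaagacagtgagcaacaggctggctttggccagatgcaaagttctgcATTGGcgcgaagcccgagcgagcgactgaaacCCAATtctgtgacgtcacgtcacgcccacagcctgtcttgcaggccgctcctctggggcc

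CCAAT boxes began at -70 and -19 from the start in Fh1, at -116 and -55 in Cs and at -92 and -60 in Ogdh. A GC box began at -87 in Fh1 and at -76 and -21 in Cs, and Ogdh had none. Genes above and below a ratio of 1 thus both carried CCAAT boxes in these windows. Of the 9 members 8 had a promoter in the table, without Idh3a. The windows of Idh3b, Idh3g, Dlst, Suclg1 and Mdh2 overlap annotated exons, from 76 bases (Dlst) to 169 bases (Mdh2). CCAAT boxes were in 4 of the 8 windows, against 33.8% of all 32536 promoter windows, and GC boxes were in 4, against 33.0%. The ETS core (CCGGAAG) was in 1 window, that of Idh3g, against 6.95%. None of the 8 held the E-box CACGTG (6.04% of all windows), the estrogen-related receptor core AAGGTCA (4.09%) or the STAT core TTCNNNGAA (7.04%), all searched on both strands. A match is a description of letters and not evidence of binding.

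The 7 further genes of the cycle reported here (Dld, Suclg2, Sucla2 and the 4 Sdh genes) were described in the same way. The log2 ratio was above 0 in 7 of these 7, 1 (Suclg2, 2.54-fold) was at least 2-fold higher and none was at least 2-fold lower. Their median log2 ratio was 0.65, and 0.24 after the length and GC correction, when 6 were above 0. The difference from the members was not tested.

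Enzymes that feed pyruvate into the cycle were mixed. Of 13 genes, 12 reached a mean of 1 FPKM, 9 of these were above 0, none was at least 2-fold higher and 2 were at least 2-fold lower. The pyruvate dehydrogenase subunit genes Pdhb (80.4 and 142 FPKM) and Pdhx (19.5 and 35.6 FPKM) had log2 ratios of 0.82 and 0.86. Both genes past the cut-off regulate the complex. Pdk2, a kinase that inhibits the complex, was at 10.97 and 3.35 FPKM. Pdpr, a regulatory subunit of the phosphatase that reactivates the complex, was at 3.71 and 0.850 FPKM. The kinases did not move together, and Pdk3, more abundant than Pdk2, was higher in STAP-1 KO LSCs (78.3 and 132 FPKM). Pdk1 had a log2 ratio of 0.014, or 0.62 after the length and GC correction. Pdk3 and Pdk1 were singled out after their values were seen.

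In the list of refilling reactions, which also holds enzymes that can draw on the cycle, such as Pck2, 1 gene stood far below the rest. Pcx, pyruvate carboxylase, which makes oxaloacetate from pyruvate, was at 151 FPKM in WT LSCs and 6.44 FPKM in STAP-1 KO LSCs. It was 23.5-fold lower in the latter, a log2 ratio of -4.53 (-4.74 to -4.37), or 15.1-fold lower after the length and GC correction (-3.92), with none of its 75-base stretches shared with another annotated transcript. Mdh2, which also makes oxaloacetate, was higher in STAP-1 KO LSCs, as given above. Of the other genes listed, Glud1 (glutamate dehydrogenase) was at 71.5 and 54.4 FPKM. Got2 (the mitochondrial aspartate aminotransferase) was at 44.4 and 69.9 FPKM, and Pck2 (the mitochondrial phosphoenolpyruvate carboxykinase) at 18.9 and 33.0 FPKM. Of the 7 genes of this list reported here, 6 reached a mean of 1 FPKM, 4 of these were above 0, and Pcx alone passed the cut-off. After the correction 3 were above 0 and Pck2 (0.80 as deposited, 1.26 corrected) was also past it. The mast cell markers were also lower in STAP-1 KO LSCs, and their part in the level of Pcx was not tested.

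The enzymes that run the same chemistry with NADP or in the cytosol were mixed. Of 7 genes 3 were above 0, 1 was at least 2-fold higher and 2 were at least 2-fold lower, with a median log2 ratio of -0.45, or -0.23 after the length and GC correction. Idh2, the mitochondrial isocitrate dehydrogenase that makes NADPH, was at 109.8 FPKM in WT LSCs and 367 FPKM in STAP-1 KO LSCs, a ratio of 3.34. Idh2 over the sum of the 3 Idh3 genes was thus 0.264 in WT and 0.512 in STAP-1 KO LSCs. Among the cytosolic enzymes, Aco1 (the cytosolic aconitase and iron regulatory protein) was at 24.1 and 9.09 FPKM and Acly (ATP citrate lyase, which splits exported citrate) at 109 and 61.0 FPKM, a log2 ratio of -0.83 that was -0.23 after the correction. Me1, the NADP malic enzyme, was at 28.8 and 3.26 FPKM, a log2 ratio of -3.11, though 23.1% of its 75-base stretches occur in other transcripts.

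The mitochondrial carriers that exchange cycle intermediates were mostly higher. Of 5 genes 4 were above 0 and 2 at least 2-fold higher, with a median log2 ratio of 0.74, or 0.79 after the correction. Slc25a13 and Slc25a12, which exchange aspartate for glutamate, were at 7.42 and 19.2 FPKM and at 39.0 and 80.05 FPKM, and Slc25a12 moved from a log2 ratio of 1.03 to 1.94 under the correction. The citrate carrier Slc25a1 was at 74.6 and 124.9 FPKM and the dicarboxylate carrier Slc25a10 at 8.48 and 13.5 FPKM. The gene below 0 was that of the oxoglutarate carrier, Slc25a11 (-0.18), which was singled out after its value was seen. Of 8 genes for the assembly of succinate dehydrogenase or the addition of lipoic acid, 7 were above 0 and 2 at least 2-fold higher, with a median of 0.62, or 0.20 after the length and GC correction. These were Sdhaf3 (listed as Acn9, 6.63 and 24.0 FPKM), an assembly factor of succinate dehydrogenase, and Lipt1 (1.78 and 3.69 FPKM), a lipoyl transferase. Lipt1 rests on about 17.1 reads in WT LSCs, its log2 ratio of 1.01 has a counting interval of 0.22 to 1.93, and it was 0.48 after the correction. Sdhaf4, a further assembly factor listed as 1110058L19Rik, was at 38.4 and 62.0 FPKM, and its log2 ratio of 0.69 was 0.05 after the correction. Mrps36, a small subunit of the oxoglutarate dehydrogenase complex, was at 3.19 and 5.52 FPKM, about 11.7 and 28.5 reads, with a counting interval of the log2 ratio (-0.23 to 1.89) that includes 0.

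Downstream of the cycle, 79 genes of the respiratory chain and ATP synthase were measured, and 74 reached a mean of 1 FPKM. Of these, 72 were above 0, or 56 after the length and GC correction. As deposited 6 were at least 2-fold higher and 1 at least 2-fold lower. After the correction 3 were at least 2-fold higher, of which Cox6a2 and Cox4i2 were among those 6, and 1 was at least 2-fold lower. The median log2 ratio of 0.62 stood beside 0.65 for the members, and after the correction the medians were 0.22 and 0.34. The 4 genes furthest from 0 were Cox6a2 (0.296 and 3.60 FPKM, about 1 read in WT LSCs), Cox7a1 (11.8 and 1.21 FPKM, about 3.5 reads in STAP-1 KO LSCs) and Cox4i2 (4.63 and 19.5 FPKM), which are tissue-restricted subunits of cytochrome c oxidase, and Ndufc1 (75.1 and 166 FPKM), a subunit of complex I, whose log2 ratio of 1.14 was 0.48 after the correction. These transcripts are short, with a median length of 863 bases against 2580 bases for the members. The difference between the lists was not tested.

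**Figure D4:**
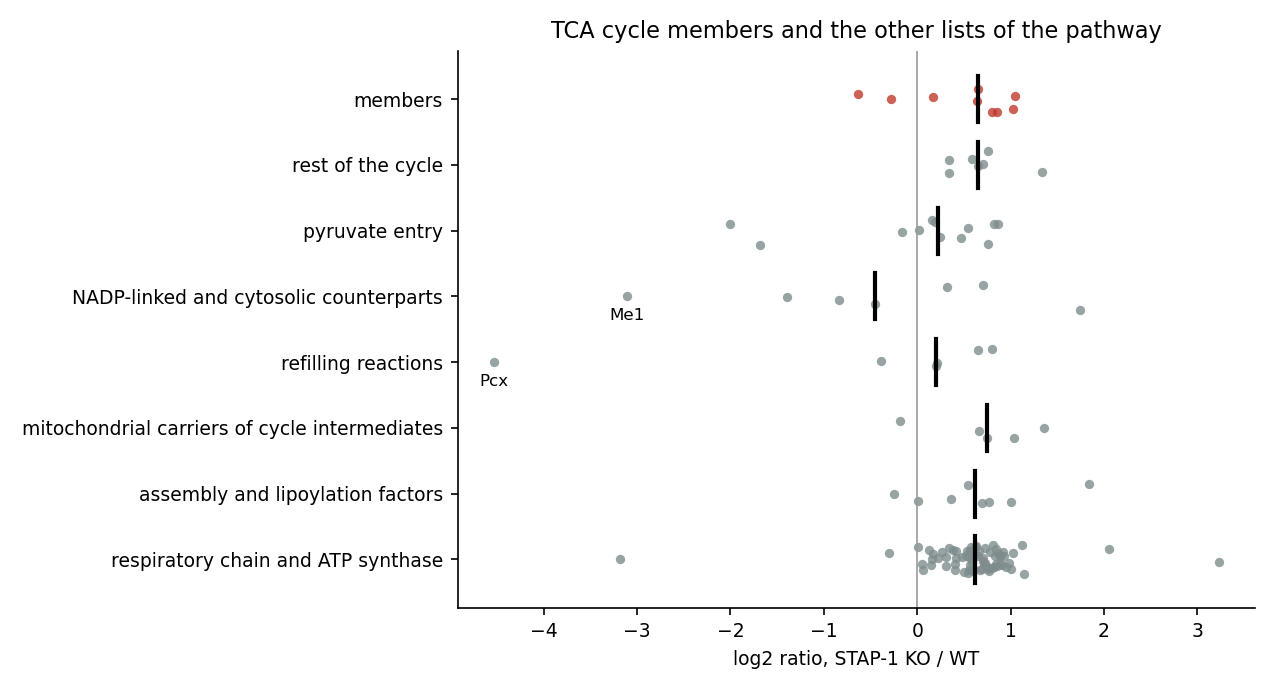
Log2 ratio of STAP-1 KO to WT for the 9 members (red) and the genes of 7 related lists (grey), with 1 point per gene whose mean reached 1 FPKM and a bar at each median. The member median is 0.65, and Pcx (-4.53) and Me1 (-3.11) are the named genes at the left.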

How the data were processed

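RNA-seq reads of 1 WT and 1 STAP-1 KO library (75-base single reads, low-input cDNA without strand) were mapped by the authors to mm10 (GRCm38). The submitters' processing notes name TopHat2 2.0.13, Bowtie2 2.2.3, SAMtools 0.1.19 and Cufflinks 2.2.1. The authors deposited FPKM values per gene symbol. The paper's methods name Cuffnorm 2.2.1 for the FPKM values and another version of SAMtools. The annotation, the scaling option used between libraries and the read totals are not given in the sources used here.

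The members and lists were chosen with earlier results of these data known. Named genes are all members, the further cycle genes, Stap1, up to 4 genes of each related list with the largest absolute log2 ratios, and up to 2 markers of a list by level, with defining markers at 0, the sorting markers and those said to be singled out. In 3 lists (further cycle genes, refilling reactions and B lymphoid markers) 1 gene each is not reported here and stays out of the counts and medians. From the respiratory chain list, taken by symbol pattern, Cox4nb and Atp5sl were left out after the data were seen, since they are not subunits. Symbols were matched to GENCODE M21 (20911 as written, 1901 through an older symbol, 472 not matched) for coordinates and the longest coding transcript. Log2 ratios used a pseudocount of 0.1 FPKM. The cut-off was 2-fold with both libraries at 0.1 FPKM or more, and lists were described over genes whose mean reached 1 FPKM. The correction subtracted the median log2 ratio in 20 bins of length and then of GC content. Effective depths came from steps between low values, of which 45.0% of 367 (WT) and 50.4% of 381 (STAP-1 KO) were whole reads to within 0.01 (2% would be by chance). Intervals are exact (95%, Clopper-Pearson on the split of estimated reads). Steps were tested on simulated data. Python 3.11.15, numpy 2.4.6, pandas 2.3.3, scipy 1.17.1 and matplotlib 3.10.9 were used.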

Additional observations from a re-analysis of the deposited data

How the results depend on the processing

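Leaving out a library was not possible, and no paired analysis was possible because there was 1 library per genotype. No member changed the sign of its log2 ratio under the 9 alternatives, which altered the pseudocount, the scaling or the correction: of 81 values 49 stayed within the margin of the counting interval on either side of the value, 32 moved further and 0 reversed. The pseudocount alternatives moved the members little, and each scaling moved them all by nearly the same amount, so neither kind could readily change a sign. Dlst, the member nearest 0 at 0.17, was at 0.10 after the length and GC correction. Fh1 ranged from 0.77 to 1.15, Ogdh from -0.63 to -0.19 and Cs from -0.38 to -0.18. The member median was 0.75 at equal FPKM totals, 0.34 after the length and GC correction, and, in alternatives chosen after seeing the data, 0.37 with the longest transcript of any kind and 0.20 with length alone. Equal totals moved the median of all genes from -0.04 to 0.06. The number of members at least 2-fold higher was 0 under each of these 3 corrections. At a cut-off of 1.5-fold 6 members were higher and 1 was lower, and at 3-fold 0 were higher. Of the 12507 genes compared, 3201 were higher and 4101 lower at 1.5-fold and 527 higher and 1620 lower at 3-fold. The correction covers 10788 of them, with 1240 higher and 2416 lower at 2-fold before it and 1049 and 1841 after it. The cause of these shifts was not tested. The lowest and highest estimated read numbers behind a member, 1113 and 8634, leave counting error small, but the spread between animals is not known.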

Other observations

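Glycolysis, which supplies pyruvate to the cycle, was mixed in direction. Of 18 genes, 17 reached a mean of 1 FPKM, and 6 of these were above 0 and 11 below, with a median log2 ratio of -0.11, or -0.30 after the length and GC correction. Among these 17, 2 genes were at least 2-fold higher in STAP-1 KO LSCs and 4 at least 2-fold lower (2 and 2 after the correction), beside 12.3% and 22.9% of all genes. Hk3, a hexokinase of myeloid cells, was at 7.66 FPKM in WT LSCs and 45.2 FPKM in STAP-1 KO LSCs, and Ldhb, a lactate dehydrogenase subunit, at 1.11 and 5.03 FPKM. Eno2, an enolase, was at 16.7 and 0.513 FPKM, and Aldoc, an aldolase, at 31.1 and 6.33 FPKM.

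Gapdh, usually among the most abundant mRNAs, was listed at 0.391 FPKM in WT LSCs and 1.03 FPKM in STAP-1 KO LSCs. Of its 75-base stretches 80.3% also occur in other annotated transcripts, and the share was 67.5% for Pgk1 and 65.4% for Eno1, against 0 for 8 of the 9 cycle members. These 3 genes were singled out after their values were seen. The levels of these glycolytic genes are therefore uncertain, and how such reads were counted is not given in the sources used here.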
